A study of Mus musculus with 9 samples.

Results

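The Ly6 family is a group of small cell surface and secreted proteins, and 10 of its genes were followed through mouse liver of 3 genotypes. The 10 genes, Ly6d, Lynx1, Ly6a, Ly6c1, Ly6c2, Ly6e, Ly6g, Ly6k, Lypd2 and Slurp1, were taken by symbol, each through the brightest probe set (a group of array probes that read 1 transcript) over all 9 arrays. Of the 10 genes 9 had a probe set annotated to their symbol, 7 of them through a probe set with 1 symbol. Such probe sets name 19938 genes on the array. Ly6c1 and Ly6c2 share their probe sets, so 8 probe sets stand for the 9 genes, and Ly6a was not analysed here. The family was chosen by an earlier result of these data, the increase of Ly6d in the NEMO knockout over wild type. That increase is therefore a description without a test.

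RNA of whole liver was measured on single-channel Affymetrix arrays, 3 for each genotype, from male C57/BL6 mice aged 8 to 9 weeks on standard chow. The first group, named NEMO/p21 double knockout by the labels, lacks NEMO in hepatocytes and was bred by crossing to constitutive p21-/- mice. The second, the NEMO knockout (NEMOΔhepa), lacks NEMO in hepatocytes alone, and the third is wild type. NEMO is the regulatory subunit of the kinase that activates NF-κB, and p21 is an inhibitor of cyclin-dependent kinases. The Cre driver is not given in the sources used here, and there was no group lacking p21 alone. Hepatocytes are named as the cells without NEMO, and whether other liver cells keep it was not measured. The labels separate the animals only by identifiers, so p-values measure the spread between these samples, which may be technical.

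The deposited values are log2 expression values per probe set, and the array medians lay between 6.47 and 6.58. Arrays correlated across probe sets at r = 0.994 to 0.996 within genotypes and 0.986 to 0.995 between them. Ikbkg, the gene of NEMO, was at 8.27 ± 0.18 in the labelled double knockout, 8.35 ± 0.12 in the NEMO knockout and 8.87 ± 0.13 in wild type (log2, SD, n = 3 each). The probe set of Cdkn1a, the gene of p21, is annotated to 4930567H12Rik as well. It was at 10.78 ± 0.56, 10.10 ± 0.53 and 8.67 ± 0.91 in the same order of genotypes, not lower where p21 should be missing, so that group is called the labelled double knockout. The position of its probes against the deletion was not analysed here. None of 12 hepatocyte markers was called in any comparison by limma. At an unadjusted p under 0.05 there were 0 in the NEMO knockout and 1 in livers of the labelled double knockout against wild type, and 0 between the knockouts. The mean of these markers lay between 13.07 and 13.25 on every array. Of all probe sets, 5.66% were called higher and 2.02% lower in the NEMO knockout against wild type. In the labelled double knockout these shares were 5.81% and 3.51%. Here and below, counts at an unadjusted p are not set against the share of all probe sets, which is not reported here.

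Ly6 proteins share a compact fold of 3 loops held by disulfide bridges, the fold of snake venom toxins. Most are tethered to the outer membrane by a glycolipid (GPI) anchor, while Slurp1 is secreted. In the mouse many of them are used as surface markers of blood cells: Ly6c of monocytes, some T cells and endothelium, Ly6g of neutrophils, Ly6a (Sca-1) of stem cells and endothelium, and Ly6d of early B lineage cells and stratified epithelium. Lynx1 and Slurp1 bind nicotinic acetylcholine receptors, and Ly6e is induced by interferons in many cell types.

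In the NEMO knockout 4 of the 8 probe sets, standing for 5 genes, were higher than in wild type, those of Ly6d, Lynx1, Ly6c1/Ly6c2 and Ly6e. In the labelled double knockout the Ly6c1/Ly6c2 and Ly6e probe sets were higher than in wild type. Between the knockouts Lynx1 was lower in the labelled double knockout. A probe set was called at a Benjamini-Hochberg adjusted p under 0.05 in a limma fit of all 28939 probe sets tested. Against wild type, the 4 NEMO knockout calls, of which Ly6d is 1, stand beside 5.66% of all probe sets called higher, and 0 members called lower beside 2.02%. In the labelled double knockout the 2 calls stand beside 5.81% called higher against wild type, and 0 called lower beside 3.51%. Between the knockouts the 1 call stands beside 0.111% called lower, and 0 called higher beside 0.0864%.

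The median difference of the 8 probe sets was 0.49 in the NEMO knockout and 0.20 in livers of the labelled double knockout against wild type (log2), beside -0.04 and -0.03 over all probe sets. Between the knockouts it was -0.07, beside 0.00. In the NEMO knockout 5 of the 8 lay wholly above wild type, Ly6d among them (11.4% of all probe sets did), and in the labelled double knockout 4 of 8, again with Ly6d (11.6% of all). Without Ly6d, through which the family was chosen, the other 7 probe sets had a median of 0.23 in the NEMO knockout, with 4 wholly above wild type. In the labelled double knockout these 7 had a median of 0.20, with 3 wholly above wild type. Against the NEMO knockout 2 of 8, Ly6d and Lynx1, lay wholly below in the labelled double knockout (5.75% of all). The part of Ly6d in that count was favoured by the choice of the family through its high NEMO knockout arrays. Without Ly6d, Lynx1 alone lay wholly below, and the median between the knockouts was -0.06. The comparisons share arrays, so their values are set side by side without relating them to one another. The share of calls that were higher depended on the scaling of the arrays: 1638 higher and 584 lower in the NEMO knockout became 1304 and 1169 after median centring of the arrays. In the labelled double knockout 1680 and 1016 became 1309 and 1661, and between the knockouts 25 and 32 became 17 and 14.

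**Figure D1:**
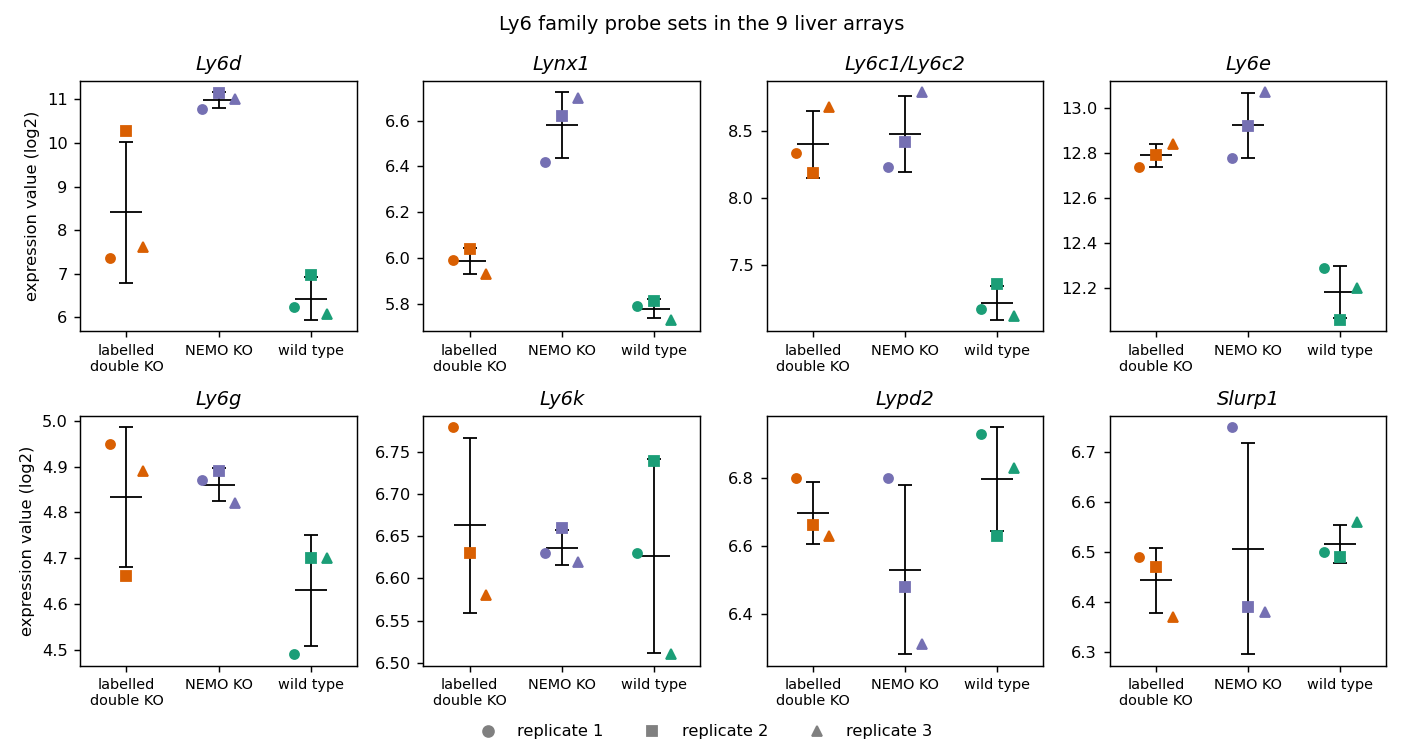
Log2 expression value (y axes, each with its own range) of the 8 Ly6 family probe sets on the 9 arrays, by genotype. Coloured symbols are arrays with their replicate number, bars the group mean ± SD (n = 3); Ly6d spans 7.35 to 10.27 in the labelled double knockout, and its NEMO knockout arrays lie between 10.79 and 11.15.

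Ly6d had 7.35, 10.27 and 7.61 in the labelled double knockout, 10.79, 11.15 and 11.00 in the NEMO knockout and 6.24, 6.98 and 6.07 in wild type (log2, replicates 1, 2 and 3). The 3 genotypes did not overlap: the NEMO knockout arrays were the highest, the wild type arrays the lowest, and the labelled double knockout lay between them with replicate 2 close to the NEMO knockout. The NEMO knockout exceeded wild type by 4.55 ± 0.64 (SE), 23.5-fold, with a 95% confidence interval of 3.11 to 6.0. In the labelled double knockout the difference from wild type was 1.98 ± 0.64, 3.95-fold, and did not pass (limma adjusted p = 0.0997). The labelled double knockout differed from the NEMO knockout by -2.57 ± 0.64 (interval -4.02 to -1.12), which did not pass either (limma adjusted p = 0.254). Both of these comparisons use arrays through which Ly6d was first picked out.

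Both of those values moved with 1 array. Without labelled double knockout replicate 2, the difference from the NEMO knockout was -3.50 (limma adjusted p = 0.00457) and that from wild type 1.05 (limma adjusted p = 0.0401). Both are descriptions, since the family was chosen through Ly6d on these arrays and the array left out is the one nearest the NEMO knockout. With each array left out in turn, the labelled double knockout stood 1.05 to 2.51 above wild type and between -3.50 and -2.04 from the NEMO knockout. The SD of Ly6d in the labelled double knockout, 1.61, was larger than that of 99.9% of the 3373 probe sets whose mean over all 9 arrays lay within 0.5 of its own, 8.61. Their median SD in that group was 0.11. Ly6d averaged 6.43 in wild type and 10.98 in the NEMO knockout, so these probe sets are not matched to its level there. In wild type its SD of 0.48 was larger than 97.8% of those probe sets, and in the NEMO knockout its SD of 0.18 was larger than 82.6%.

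The genes whose profile over the 9 arrays came nearest to Ly6d were sought among probe sets with 1 symbol. Predicted genes, clone names, small RNAs and sensory receptors were passed over, which left 18732 probe sets. Each was centred on its own mean, and the measure of likeness was the root mean square difference, beside 2.03 for Ly6d about its own mean. The nearest were Sprr1a, which builds the cornified envelope of keratinocytes (0.98), Nipal2 (1.18), Abcd2, a peroxisomal transporter of fatty acids (1.19), Gldn (1.22) and Anxa2, a calcium-dependent membrane-binding protein (1.22). Since they were chosen for this likeness, their levels are descriptions.

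Sprr1a had 8.24, 10.68 and 9.04 in the labelled double knockout, 9.85, 10.25 and 9.16 in the NEMO knockout and 6.76, 6.41 and 6.31 in wild type (log2). Both knockouts lay above wild type and overlapped each other, with replicate 2 of the labelled double knockout the highest of all 9 arrays. Abcd2 had 7.61, 8.75 and 7.97 in the labelled double knockout, 9.03, 8.86 and 8.79 in the NEMO knockout and 6.92, 6.77 and 6.81 in wild type. Its 3 genotypes did not overlap and followed the same order as for Ly6d. Replicate 2 of the labelled double knockout was the highest of its group for Ly6d, Sprr1a, Abcd2 and Anxa2.

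Nipal2 had 5.25, 5.47 and 5.69 in the labelled double knockout, 7.05, 7.50 and 8.03 in the NEMO knockout and 4.99, 5.14 and 4.87 in wild type. Here the labelled double knockout lay just above wild type on all 3 arrays and well below the NEMO knockout. Gldn had 6.89, 8.01 and 8.58 in the labelled double knockout, 8.40, 8.02 and 8.96 in the NEMO knockout and 5.94, 5.54 and 5.44 in wild type. Anxa2 had 8.89, 9.56 and 9.35 in the labelled double knockout, 9.49, 9.74 and 9.69 in the NEMO knockout and 7.11, 7.44 and 7.17 in wild type. For both genes the knockouts overlapped each other and lay above wild type.

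**Figure D2:**
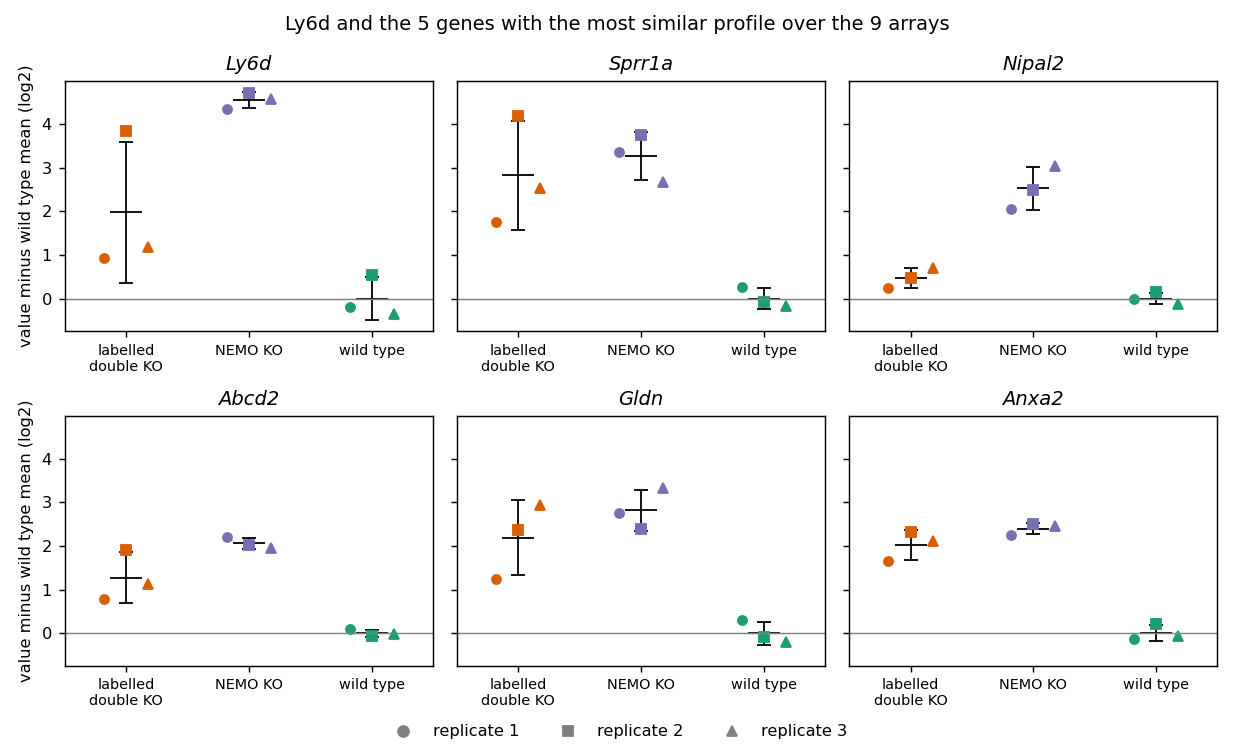
Ly6d and the 5 genes nearest to it in profile, as log2 value minus the wild type mean (y axes, shared) by genotype. Symbols are arrays with their replicate number, bars the group mean ± SD (n = 3); replicate 2 of the labelled double knockout is the highest of its group for Ly6d, Sprr1a, Abcd2 and Anxa2.

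Stratified epithelium and B lineage cells, which are known to carry Ly6d, were looked at through marker lists. A cholangiocyte list was added, though those cells are not among the carriers of Ly6d named above. Of 15 stratified epithelium markers 1, Sprr1a, was called higher in each knockout against wild type, and 0 lower, and the median difference was -0.05 in the NEMO knockout and -0.02 in livers of the labelled double knockout. The basal keratin Krt5 stood at -0.17 ± 0.12 and the epithelial regulator Trp63 at -0.11 ± 0.08 in the NEMO knockout, neither of them called. The mean of the list lay between 5.83 and 5.99 in the labelled double knockout, 5.79 and 5.99 in the NEMO knockout and 5.68 and 5.78 in wild type. Of 11 B cell markers 1, the adaptor Blnk, was called in each knockout (1.5 ± 0.13 in the NEMO knockout, 0.97 ± 0.13 in the labelled double knockout), with a list median of 0.11 and -0.03. The array means of that list were 5.67 to 5.72 in the labelled double knockout, 5.73 to 5.85 in the NEMO knockout and 5.52 to 5.68 in wild type. Of 8 cholangiocyte markers 4 were called higher in the NEMO knockout and 3 in livers of the labelled double knockout, among them the surface protein Cd24a (1.56 ± 0.28 in the NEMO knockout), with list medians of 0.55 and 0.41. These counts fell to 1 in the NEMO knockout without replicate 3 of either genotype and to 2 without replicates 1 or 2 of wild type, each left out singly, and to 1 in the labelled double knockout without any single wild type array and to 2 without any single NEMO knockout array or labelled double knockout replicate 3. The array means of the list were 6.35 to 6.84 in the labelled double knockout, 6.46 to 6.81 in the NEMO knockout and 5.95 to 6.12 in wild type. The part of any of these cells in the Ly6d values was not tested. In whole liver, fewer cells of a type and less RNA per cell cannot be told apart.

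Lynx1, a GPI-anchored modulator of nicotinic acetylcholine receptors, had 5.99, 6.04 and 5.93 in the labelled double knockout, 6.42, 6.62 and 6.70 in the NEMO knockout and 5.79, 5.81 and 5.73 in wild type (log2). All 3 genotypes were apart, with the NEMO knockout highest and the labelled double knockout just above wild type. It rose in the NEMO knockout by 0.80 ± 0.08 (interval 0.62 to 0.98), 1.74-fold, against wild type (limma adjusted p = 0.000578). The labelled double knockout stood 0.21 ± 0.08 above wild type (interval 0.02 to 0.39) and did not pass (limma adjusted p = 0.175).

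Against the NEMO knockout, Lynx1 was lower in the labelled double knockout by -0.60 ± 0.08 (interval -0.78 to -0.41), 0.662-fold, and passed narrowly (limma adjusted p = 0.0348). That call rested on most of the arrays. With each array left out in turn, differences ran from -0.68 to -0.54 and the limma adjusted p from 0.0221 to 0.161. The lowest adjusted p came without NEMO knockout replicate 1. The call ended when any other array was left out. Other settings that ended it include median centring (0.0525), cyclic loess (0.0685) and a fit of the 2 knockouts alone (0.113). Its direction was the same under all of these. The spread of Lynx1 was ordinary, larger than 26.5%, 49.2% and 18.4% of 4922 probe sets of like mean in the labelled double knockout, the NEMO knockout and wild type.

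The profiles nearest to Lynx1 were those of Eln, the gene of elastin (root mean square difference 0.11), Ncr1, a receptor of natural killer cells (0.12), and Tmem140 (0.12), beside 0.35 for Lynx1 about its own mean. Eln averaged 7.73 ± 0.12 in the labelled double knockout, 8.11 ± 0.15 in the NEMO knockout and 7.33 ± 0.04 in wild type (log2, SD, n = 3 each). Ncr1 averaged 5.02 ± 0.08, 5.56 ± 0.19 and 4.82 ± 0.21 in the same genotypes. Each was highest in the NEMO knockout with the labelled double knockout between. Since both were chosen for likeness to Lynx1, this order is a description.

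The Ly6c probe set reads Ly6c1 and Ly6c2 together, so their signals cannot be separated. It had 8.34, 8.19 and 8.68 in the labelled double knockout, 8.23, 8.42 and 8.79 in the NEMO knockout and 7.17, 7.36 and 7.12 in wild type (log2). The knockouts overlapped each other, and all 6 of their arrays lay above wild type. Ly6c rose in the NEMO knockout by 1.27 ± 0.16 (interval 0.90 to 1.63), 2.41-fold, against wild type (limma adjusted p = 0.00166). In the labelled double knockout it rose by 1.19 ± 0.16 (interval 0.83 to 1.55), 2.28-fold (limma adjusted p = 0.00195). The knockouts differed by -0.08 ± 0.16 with an interval of -0.44 to 0.28 (limma adjusted p = 0.962).

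A second probe set annotated to both genes had 7.73, 7.66 and 7.93 in the labelled double knockout, 7.66, 7.70 and 8.15 in the NEMO knockout and 6.73, 6.83 and 6.73 in wild type. It showed the same pattern of overlapping knockouts above wild type. Its differences were 1.07 ± 0.13 in the NEMO knockout (limma adjusted p = 0.00127) and 1.01 ± 0.13 in the labelled double knockout against wild type (limma adjusted p = 0.00148), and -0.07 ± 0.13 between the knockouts.

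The stretches just before the starts of Ly6c1, Ly6c2 and Ly6g are printed because the data speak of these 3 members and their upstream sequence was at hand. They are not the transcripts that the probes read. They are RefSeq windows of GRCm38.p6, read 5′ to 3′ on the strand of the gene, shortened to the part ahead of the annotated gene. Capitals mark TATAAA and CCAAT.
Ly6c1, chr15:75048921-75049087, minus strand: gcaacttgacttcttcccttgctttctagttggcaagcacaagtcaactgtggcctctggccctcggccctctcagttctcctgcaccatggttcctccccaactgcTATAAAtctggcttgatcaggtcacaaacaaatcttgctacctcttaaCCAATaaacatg
Ly6c2, chr15:75112067-75112221, minus strand: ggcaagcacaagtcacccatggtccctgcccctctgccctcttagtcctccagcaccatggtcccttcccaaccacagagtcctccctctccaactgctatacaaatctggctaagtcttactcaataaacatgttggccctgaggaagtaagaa
Ly6g, chr15:75155011-75155260, plus strand: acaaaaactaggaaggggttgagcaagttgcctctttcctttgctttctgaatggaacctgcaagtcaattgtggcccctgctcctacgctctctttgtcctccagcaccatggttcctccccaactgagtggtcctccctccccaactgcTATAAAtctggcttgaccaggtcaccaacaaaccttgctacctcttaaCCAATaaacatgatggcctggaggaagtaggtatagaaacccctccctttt

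Over local alignments of the whole 300-base windows, Ly6c1 and Ly6c2 were identical at 74.3% of 288 positions, Ly6c1 and Ly6g at 76.9% of 281, and Ly6c2 and Ly6g at 71.9% of 249. The windows of Ly6c1 and Ly6g hold TATAAA, found on either strand in 14.2% of 27025 windows of that length, and CCAAT, found in 38.0%, while that of Ly6c2 holds neither. None of the 3 windows holds GAAA, any 2 bases and GAAA again, an interferon-stimulated element (3.49% of all windows), TTCNNNGAA, a gamma-activated site (8.42%), GGG, any 2 bases and TTTCC, a κB site (1.63%), or TGANTCA, an AP-1 site (7.92%), searched on both strands. These letters in a window are a description and say nothing of binding.

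Ly6c marks inflammatory monocytes. Of 11 other markers of monocytes and infiltrating macrophages, 7 were called higher, 0 lower and 4 in neither direction in each knockout against wild type, with medians of 1.0 in the NEMO knockout and 0.80 in livers of the labelled double knockout. The integrin Itgax rose by 1.62 ± 0.17 and 1.48 ± 0.17 in these comparisons, the chemokine receptor Ccr2 by 1.26 ± 0.15 and 1.10 ± 0.15, and Plac8 by 1.48 and 1.04. The list mean lay between 6.65 and 6.86 in the labelled double knockout, 6.67 and 7.09 in the NEMO knockout and 6.02 and 6.06 in wild type. Endothelium also carries Ly6c. Of 12 endothelial markers 0 were called by limma in any comparison (3, 3 and 1 had an unadjusted p under 0.05 in the NEMO knockout against wild type, the labelled double knockout against wild type and between the knockouts), and their mean lay between 9.01 and 9.24, 9.00 and 9.17, and 9.07 and 9.18 in the labelled double knockout, the NEMO knockout and wild type. Of 12 T and NK cell markers 4 were called higher in the NEMO knockout and 1 in livers of the labelled double knockout, of 7 plasmacytoid dendritic cell markers 3 and 1, and of 12 stellate cell markers 8 and 8 (medians 0.71 and 0.74). The plasmacytoid dendritic cell marker called in both knockouts, Irf8, also stands in the interferon gamma response list below. Siglech, another of that list, passed narrowly in the NEMO knockout (limma adjusted p = 0.0498). With each array left out, the T and NK cell counts ran over 2 to 5 and 0 to 2, those of plasmacytoid dendritic cells over 1 to 4 in the NEMO knockout, and those of stellate cells over 7 to 9 in the labelled double knockout. The part of any of these cells in the Ly6c values was not tested.

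The profiles nearest to Ly6c were Pmepa1 (root mean square difference 0.11), Ms4a6b (0.11) and Gpr65, a proton-sensing receptor of leukocytes (0.13), beside 0.61 for Ly6c about its own mean. Pmepa1 averaged 8.42 ± 0.24 in the labelled double knockout, 8.66 ± 0.27 in the NEMO knockout and 7.46 ± 0.05 in wild type. Ms4a6b averaged 7.12 ± 0.26, 7.11 ± 0.26 and 6.03 ± 0.23 in the same genotypes. Ly6c itself varied more than most probe sets of like mean in both knockouts, with an SD larger than 92.1% of 3794 in the labelled double knockout and 93.5% in the NEMO knockout.

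Ly6e, the interferon-inducible member, had 12.74, 12.79 and 12.84 in the labelled double knockout, 12.78, 12.92 and 13.07 in the NEMO knockout and 12.29, 12.06 and 12.20 in wild type (log2). The knockouts overlapped each other and lay above wild type on all 6 arrays. It rose in the NEMO knockout by 0.74 ± 0.09 (interval 0.54 to 0.94), 1.68-fold (limma adjusted p = 0.00124), and in the labelled double knockout by 0.61 ± 0.09 (interval 0.41 to 0.81), 1.53-fold (limma adjusted p = 0.00276). Between the knockouts it differed by -0.13 ± 0.09 (interval -0.33 to 0.07; limma adjusted p = 0.803).

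Of 11 other measured genes of the interferon response, 6 were called higher in the NEMO knockout and 3 in livers of the labelled double knockout against wild type, 0 lower, with medians of 0.59 and 0.20. The labelled double knockout count was 1 without its replicate 2 or 3. The apoptosis regulator Xaf1 stood at 1.22 ± 0.14 in the NEMO knockout, at 0.49 in the labelled double knockout and at -0.73 between them (limma adjusted p = 0.108 for the last). Oasl2 rose by 1.09 ± 0.12 in the NEMO knockout and by 0.66 in livers of the labelled double knockout. The list mean lay between 7.45 and 7.77 in the labelled double knockout, 7.99 and 8.09 in the NEMO knockout and 7.18 and 7.50 in wild type, so that the labelled double knockout overlapped wild type, while for Ly6e it did not. Of 11 interferon gamma response genes 7 were called higher in the NEMO knockout and 2 in livers of the labelled double knockout, with Gbp4 at 1.25 in the NEMO knockout and the peptide transporter Tap1 at 0.95 and 0.13. The labelled double knockout count was 1 without any single wild type array or its own replicate 2 or 3. Between the knockouts 0 genes of either list were called by limma, with 6 and 8 at an unadjusted p under 0.05. The share of all probe sets under that unadjusted threshold is not reported here, so both counts are descriptions. Whether Ly6e differs from these lists was not tested.

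The profiles nearest to Ly6e were Ehd2, a membrane-remodelling ATPase of caveolae (root mean square difference 0.05), Hcls1, an actin-binding protein of blood cells (0.06), and Apbb1ip (0.07), beside 0.34 for Ly6e about its own mean. Hcls1 averaged 8.02 ± 0.03 in the labelled double knockout, 8.21 ± 0.06 in the NEMO knockout and 7.39 ± 0.11 in wild type. Ehd2 averaged 7.34 ± 0.05, 7.54 ± 0.15 and 6.78 ± 0.07. In each the step between either knockout and wild type was larger than that between the knockouts. Since both were chosen for likeness to Ly6e, this too is a description.

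**Figure D3:**
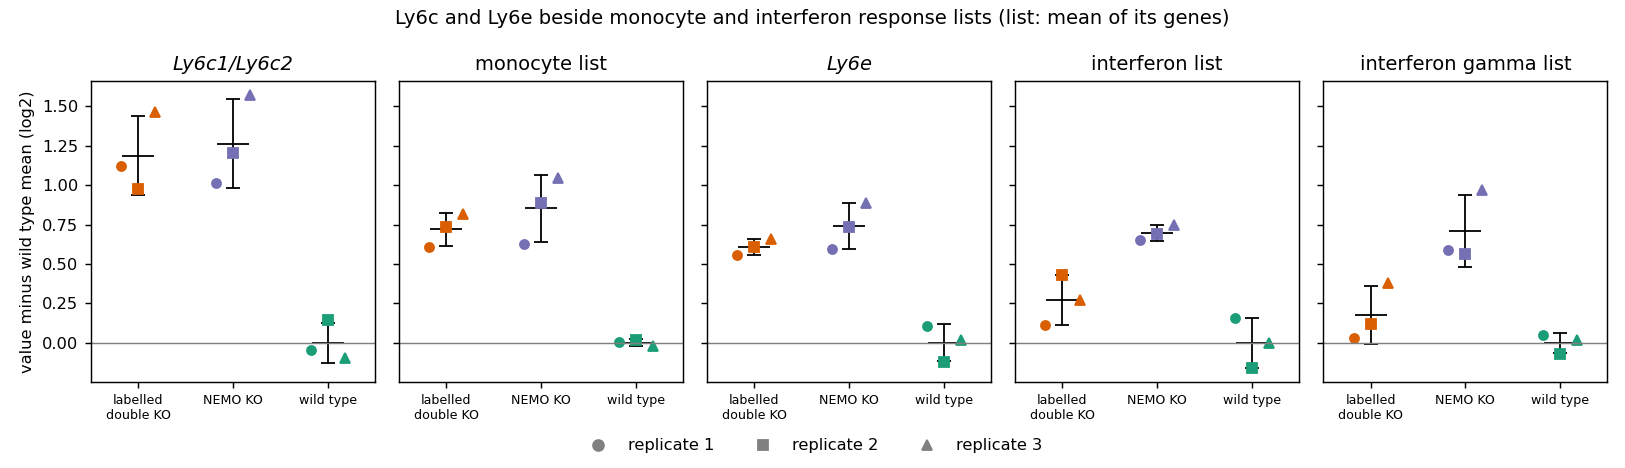
The Ly6c1/Ly6c2 probe set and Ly6e beside the array means of the monocyte, interferon response and interferon gamma response lists, as log2 value minus the wild type mean (y axes, shared) by genotype. Symbols are arrays with their replicate number, bars the group mean ± SD (n = 3); Ly6c, Ly6e and the monocyte list are apart from wild type in both knockouts, while the labelled double knockout overlaps wild type in both interferon lists.

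Ly6g, the mouse neutrophil antigen, had 4.95, 4.66 and 4.89 in the labelled double knockout, 4.87, 4.89 and 4.82 in the NEMO knockout and 4.49, 4.70 and 4.70 in wild type (log2). The NEMO knockout lay above wild type without overlap, by 0.23 ± 0.09 (interval 0.02 to 0.43), and did not pass (limma adjusted p = 0.202). The labelled double knockout overlapped wild type and stood at 0.20 ± 0.09 (interval -0.01 to 0.41; limma adjusted p = 0.253). Of 12 neutrophil markers 2 were called higher in the NEMO knockout, the receptor Csf3r (0.68 ± 0.09) and Retnlg (0.76 ± 0.18, limma adjusted p = 0.0309). The Retnlg call ended in a fit of the 2 genotypes alone and without any single wild type array or labelled double knockout replicate 3, at an adjusted p of up to 0.106. In the labelled double knockout Csf3r was called higher (0.36, limma adjusted p = 0.0346) and the gelatinase Mmp9 lower (-0.53, limma adjusted p = 0.0386). With each array left out, the adjusted p reached 0.11 for Csf3r, whose call ended without any single array of these 2 genotypes. It reached 0.136 for Mmp9, whose call was lost on leaving out any single labelled double knockout array, replicates 1 or 3 of wild type or replicate 2 of the NEMO knockout. The list mean lay between 5.39 and 5.52 in the labelled double knockout, 5.53 and 6.01 in the NEMO knockout and 5.37 and 5.40 in wild type. The part of these cells in the Ly6g values was not tested.

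The other 3 members, with Ly6g, were called in no comparison, and no difference among these 4 exceeded 0.27 in size. Ly6k, known from testis, had 6.78, 6.63 and 6.58 in the labelled double knockout, 6.63, 6.66 and 6.62 in the NEMO knockout and 6.63, 6.74 and 6.51 in wild type. Slurp1, a secreted protein of the epidermis, had 6.49, 6.47 and 6.37 in the labelled double knockout, 6.75, 6.39 and 6.38 in the NEMO knockout and 6.50, 6.49 and 6.56 in wild type. For both genes all 3 genotypes overlapped.

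Lypd2 had 6.80, 6.66 and 6.63 in the labelled double knockout, 6.80, 6.48 and 6.31 in the NEMO knockout and 6.93, 6.63 and 6.83 in wild type, and its genotypes overlapped. Its NEMO knockout difference of -0.27 ± 0.13 from wild type had an interval of -0.55 to 0.02 (limma adjusted p = 0.286). No detection call came with the values, so whether Ly6g, Ly6k, Lypd2 and Slurp1 were measured above background is not known. The same holds for Lynx1, with a mean of 6.11 over the 9 arrays, and for Ly6d in wild type, at 6.43. Array medians lay between 6.47 and 6.58.

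**Figure D4:**
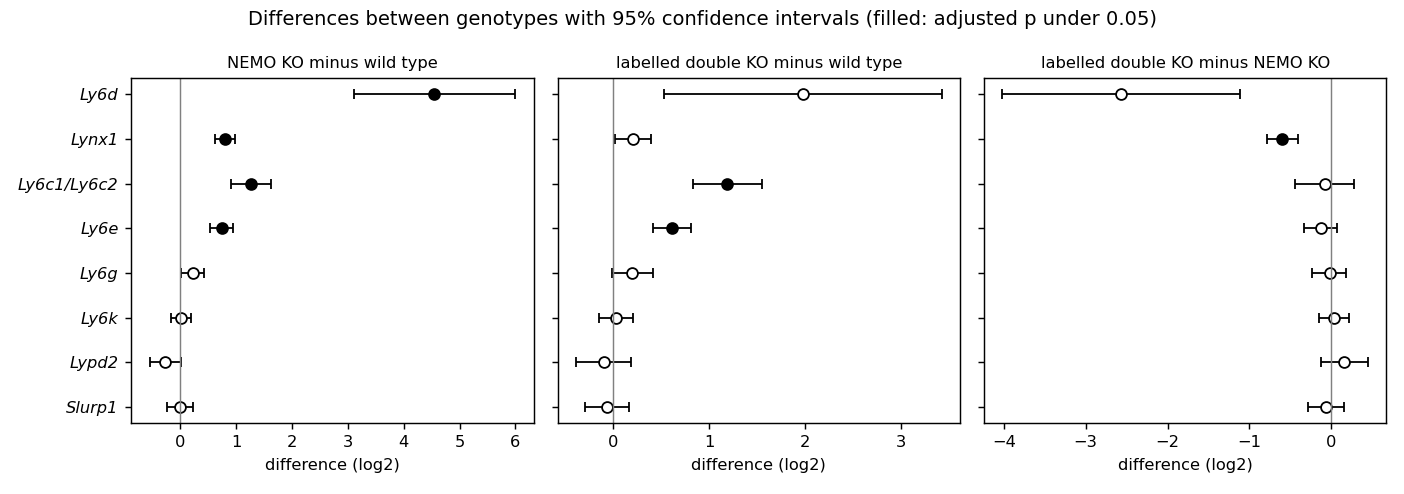
Differences between genotypes (x axes, log2) for the 8 Ly6 family probe sets in the 3 comparisons, with 95% confidence intervals; filled points have an adjusted p under 0.05. The Ly6c1/Ly6c2 and Ly6e points are filled in both comparisons with wild type, Lynx1 in the NEMO knockout against wild type and between the knockouts.

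All 10 genes lie on chromosome 15, in an interval running between Slurp1 and Ly6g that holds 29 genes in the RefSeq table of GRCm38.p6. Of its other 19 genes 9 are protein-coding, and 8 of these were measured by a probe set of their own. None of those 8 was called by limma in any comparison (1, 0 and 0 had an unadjusted p under 0.05 in the NEMO knockout against wild type, the labelled double knockout against wild type and between the knockouts). Lynx1 and Ly6d are direct neighbours, the fifth and sixth genes of the interval. On the far side of Lynx1, Slurp2, which is secreted like Slurp1, stood at -0.04 ± 0.12 in the NEMO knockout against wild type (limma adjusted p = 0.889). On the far side of Ly6d, Ly6g6g stood at 0.07 ± 0.09 (limma adjusted p = 0.738). Near Ly6c2, Ly6a2 stood at 0.56 ± 0.23 in the same comparison, with all NEMO knockout arrays above wild type, and did not pass (limma adjusted p = 0.205). Ly6i stood at 0.27 ± 0.17 (limma adjusted p = 0.424).

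**Figure D5:**
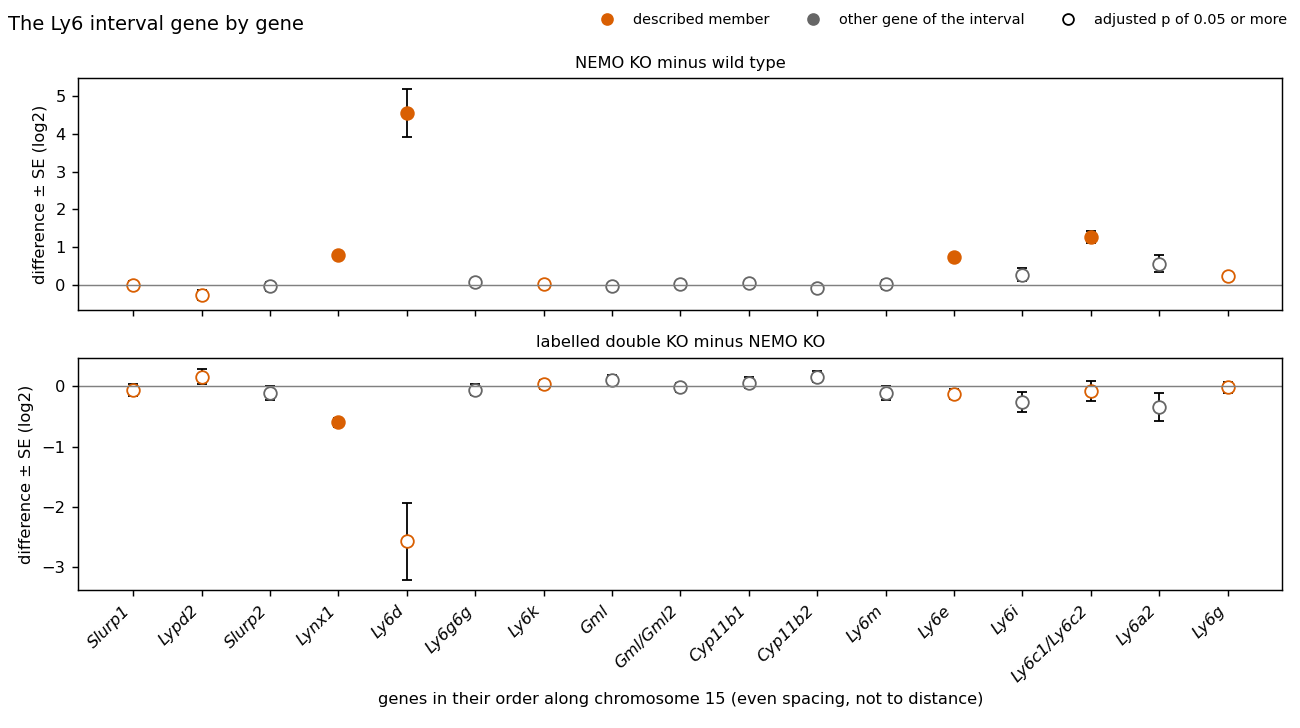
Differences ± SE (y axes, log2) of the measured genes of the chromosome 15 interval in gene order, not to distance, for the NEMO knockout minus wild type and the labelled double knockout minus the NEMO knockout. Orange points are the described members and grey points other genes, open where the adjusted p was 0.05 or more. In the NEMO knockout panel Ly6d (4.55), Ly6c1/Ly6c2 (1.27), Lynx1 (0.80) and Ly6e (0.74) are filled. Between the knockouts only Lynx1 (-0.60) is filled, and Ly6d (-2.57) is open.

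Beyond the 10 genes, 33 of 36 further genes of the Ly6 and uPAR superfamily were measured. Among them 0 were called higher and 2 lower in the NEMO knockout, and 0 higher and 3 lower in the labelled double knockout, against wild type. Over all probe sets 5.66% were called higher and 2.02% lower in the NEMO knockout. In the labelled double knockout these shares were 5.81% and 3.51%. Between the knockouts 0 were called by limma, with 1 at an unadjusted p under 0.05. The median differences of the 33 were -0.04, -0.01 and 0.02 in these comparisons. The genes called lower include both mouse forms of CD59, the GPI-anchored inhibitor of the complement membrane attack complex.

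Cd59b stood at -0.54 ± 0.13 in the NEMO knockout (limma adjusted p = 0.0329) and -0.71 ± 0.13 in the labelled double knockout (limma adjusted p = 0.0081) against wild type. Cd59a averaged 10.78 ± 0.13 in the labelled double knockout, 10.88 ± 0.07 in the NEMO knockout and 11.18 ± 0.01 in wild type (log2, SD, n = 3 each). Its differences from wild type were -0.39 ± 0.08 in the labelled double knockout (limma adjusted p = 0.0114) and -0.29 ± 0.08 in the NEMO knockout (limma adjusted p = 0.04998). Pinlyp, a phospholipase inhibitor, stood at -0.27 ± 0.07 in the labelled double knockout (limma adjusted p = 0.0403).

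Several of these decreases depended on single arrays or on the processing. The NEMO knockout call of Cd59a ended when any array other than labelled double knockout replicate 3 was left out, and under quantile normalisation, cyclic loess and array weights. The labelled double knockout call of Pinlyp ended when any array other than NEMO knockout replicate 1 was left out, with a variance trend and in a fit of the 2 genotypes alone. That of Cd59b in the NEMO knockout ended without any one of 5 arrays: replicates 1 and 2 of wild type, replicates 1 and 3 of the NEMO knockout and replicate 3 of the labelled double knockout, and in a fit of the 2 genotypes alone. With each array left out in turn, 0 to 1 genes of this list were called lower in the NEMO knockout and 2 to 3 in the labelled double knockout. Plaur, the urokinase receptor after which the superfamily is named, stood at 0.15 ± 0.07 in the NEMO knockout against wild type (limma adjusted p = 0.242), and Gpihbp1, which holds lipoprotein lipase on capillary endothelium, at 0.01 ± 0.08. Neither was called.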

How the data were processed

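The authors deposited 1 table with a log2 expression value for each probe set on each array, made with RMA per the submitters' processing notes. RMA gives all arrays nearly the same distribution, which would hide a shift of all RNA. Its log base is unstated and was read from RMA and the range, 2.05 to 14.41. Software versions and genome build are not stated in the sources at hand. Precision is limited by the small number of arrays, which carry no read depth.

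Of 35556 probe sets, 6617 (18.6%) with identifiers below the first annotated one were taken as controls, an inference, and left out. The platform annotation gave 1 symbol to 21789 of the other 28939, several to 1621 and none to 5529. Groups were taken from the sample titles. A limma model (version 3.58.1, R 4.3.3; lmFit, eBayes without trend, 2-sided) was fitted to all 9 arrays with 1 mean per genotype, and p-values were adjusted by Benjamini-Hochberg over all probe sets tested. Intervals are 95% and moderated. The fit was first checked on simulated data.

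The members and gene lists were chosen with earlier results of these data known. Named genes are the members, the called genes of the superfamily list, up to 3 called genes of each marker list, defining markers, the nearest profiles (5 for Ly6d, 3 for other called members, some given by name alone), called neighbours and the targeted genes. Tmem140, Gpr65 and Apbb1ip are such names. Plaur, Gpihbp1 and the uncalled neighbours Slurp2, Ly6g6g, Ly6a2 and Ly6i were added after their values were seen, as was Mmp9. RefSeq tables of GRCm38.p6 gave gene order and promoter windows, which held 3 of the 10 members. Alternatives were 3 other scalings, array weights, a variance trend, a filter on dim probe sets, other probe set rules, fits of 2 genotypes, the replicate number as a block and leaving out each array.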

Additional observations from a re-analysis of the deposited data

How the results depend on the processing

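In the NEMO knockout against wild type, 4 members were called under all 19 alternatives. Ly6d is 1 of them, by the choice of the family, so its call says nothing of stability. Lynx1, Ly6c1/Ly6c2 and Ly6e kept their calls, and the same held for Ly6c1/Ly6c2 and Ly6e in the labelled double knockout, where 2 to 3 members were called. Between the knockouts 0 members were called under median centring, cyclic loess, a fit of the 2 genotypes compared and the replicate block, and 0 to 1 with each array left out. The replicate numbers did not pair the samples: same-numbered deviations correlated between -0.116 and 0.391. With that number as a block 2318, 2775 and 18 probe sets were called in the 3 comparisons, against 2222, 2696 and 57 without it. The block ended the Lynx1 call between the knockouts (limma adjusted p = 0.0834) and the calls of Cd59a in the NEMO knockout and Pinlyp in the labelled double knockout. For Ly6d in the labelled double knockout against wild type it gave 1.98 (limma adjusted p = 0.0405). That value is a description, since the family was chosen through Ly6d and the numbers did not pair the samples. Between the knockouts 31 were called with centring and 23 in a fit of the 2 genotypes. Leaving out each array gave 1382 to 2335, 1601 to 2720 and 10 to 44, lowest without NEMO knockout replicate 3 in the first and labelled double knockout replicate 3 in the other two. In the last, only wild type replicate 1 moved the count by less than 1.5 times.

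Some uncalled differences changed sign. Ly6k in the NEMO knockout went to -0.06 under quantile normalisation and -0.05 under centring (-0.05 to 0.07 with arrays left out), and in the labelled double knockout to -0.03 under both (-0.03 to 0.09). Slurp1 in the NEMO knockout went to 0.01 under cyclic loess (-0.13 to 0.06 with arrays left out). Between the knockouts, arrays left out gave -0.03 to 0.07 for Ly6k, -0.12 to 0.06 for Slurp1, -0.22 to 0.08 for Ly6c1/Ly6c2 and -0.08 to 0.06 for Ly6g. Ly6g has no value under the filter on dim probe sets. The cause was not tested. Centring moved the median of all probe sets in the NEMO knockout to -0.10.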
